A study of Mus musculus with 6 samples.

Results

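The genes described here are 10 that are known from fetal liver: Afp, Gpc3, Cd24a, Lin28b, Igf2bp1, Igf2bp2, Igf2bp3 and Hmga2, with Zhx2 and Zbtb20, which encode repressors of fetal liver genes. All rows of the deposited intensity table that carried one of the 10 gene names were taken, which gave 15 probes of 55681 for the 10 genes, out of 29862 named genes on the array. Igf2bp2, Lin28b, Hmga2, Gpc3 and Zbtb20 had 2 probes each and the other genes 1 each.

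Livers were taken at day 3 of life from mice without Cugbp1 (current symbol Celf1), which encodes an RNA-binding protein, and from wild-type mice of the same age. There were 3 knockout arrays and 3 wild-type arrays, 1 liver sample each, with total RNA labelled with Cy3. The knockout is described in the labels by the gene name only, and the sources used here give neither the strain nor the way the allele was made. No other genotype or treatment is among the samples. Nothing in the labels says that replicates came from separate litters, so the p-values rest on the spread between these 6 samples. That spread may be technical in part, though sex-linked transcripts, given below, differed between replicates within each genotype.

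The fetal liver makes alpha-fetoprotein and other growth-associated products that are shut off in the weeks after birth and can return in liver cancer, hence the name oncofetal. In mice, Zhx2 and Zbtb20 encode nuclear proteins needed for this postnatal repression. LIN28B blocks the maturation of let-7 microRNAs, and Hmga2, Lin28b and the Igf2bp genes are among the transcripts that let-7 represses.

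Array facts that touch these genes come first. Raw 75th percentiles ran from 350 to 535 on the knockout arrays and from 397 to 444 on the wild-type arrays, and intensities were scaled to a common 75th percentile of 433. Celf1, the targeted gene, read 520.1, 391.5 and 492.4 (scaled intensity) on knockout 1, 2 and 3, against 4209, 3664 and 3520 on wild-type 1, 2 and 3. It differed by -3.03 (log2 difference, limma adjusted p = 0.0556) and its second probe by -3.55. Summed skeletal muscle markers were 2940, 77500 and 513000 on knockout 1, 2 and 3, against 2760, 3080 and 109000 on wild-type 1, 2 and 3. Summed exocrine pancreas markers were 231000 on knockout 2, against 4520 to 12100 on the wild-type arrays. The labels' growth protocol calls the knockout mice male, but the Y-linked Ddx3y stood at 10.67 (log2 scaled intensity) on knockout 1 and 10.66 on wild-type 1, and at 1.09 to 1.88 on the other 4 arrays. Xist stood at 2.10 and 1.75 on knockout 1 and wild-type 1, and at 10.05 to 10.82 on the other 4. Knockout 2 and 3 thus went against that label, and the sex of the wild-type mice is not labelled.

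None of the 9 tested genes passed adjusted p 0.05 in limma, where 0.00323% of all 30929 features did (1 feature, and 0 with the replicate number as a block). At an unadjusted p under 0.05 there was 1 of the 9, Gpc3, against 2.98% of all features (1.55% higher and 1.44% lower in knockout). In the fit blocked on replicate it was 0 of the 9, against 5.10% of all features. The groups did not overlap for 1 of the 9, again Gpc3, against 6.71% of all features (3.18% with knockout lower). With each probe by itself, 0.00808% of 37122 probes passed and 6.62% had groups that did not overlap. Zhx2 was too dim to be tested. Of the 9, 5 had a positive and 4 a negative log2 difference. In simulated data of the same size, 0% of changes of 0.5 or 1 on the log2 scale were recovered. The simulated arrays were independent and held none of the sex, muscle or pancreas differences described above, so this share may not carry over to these livers.

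**Figure D1:**
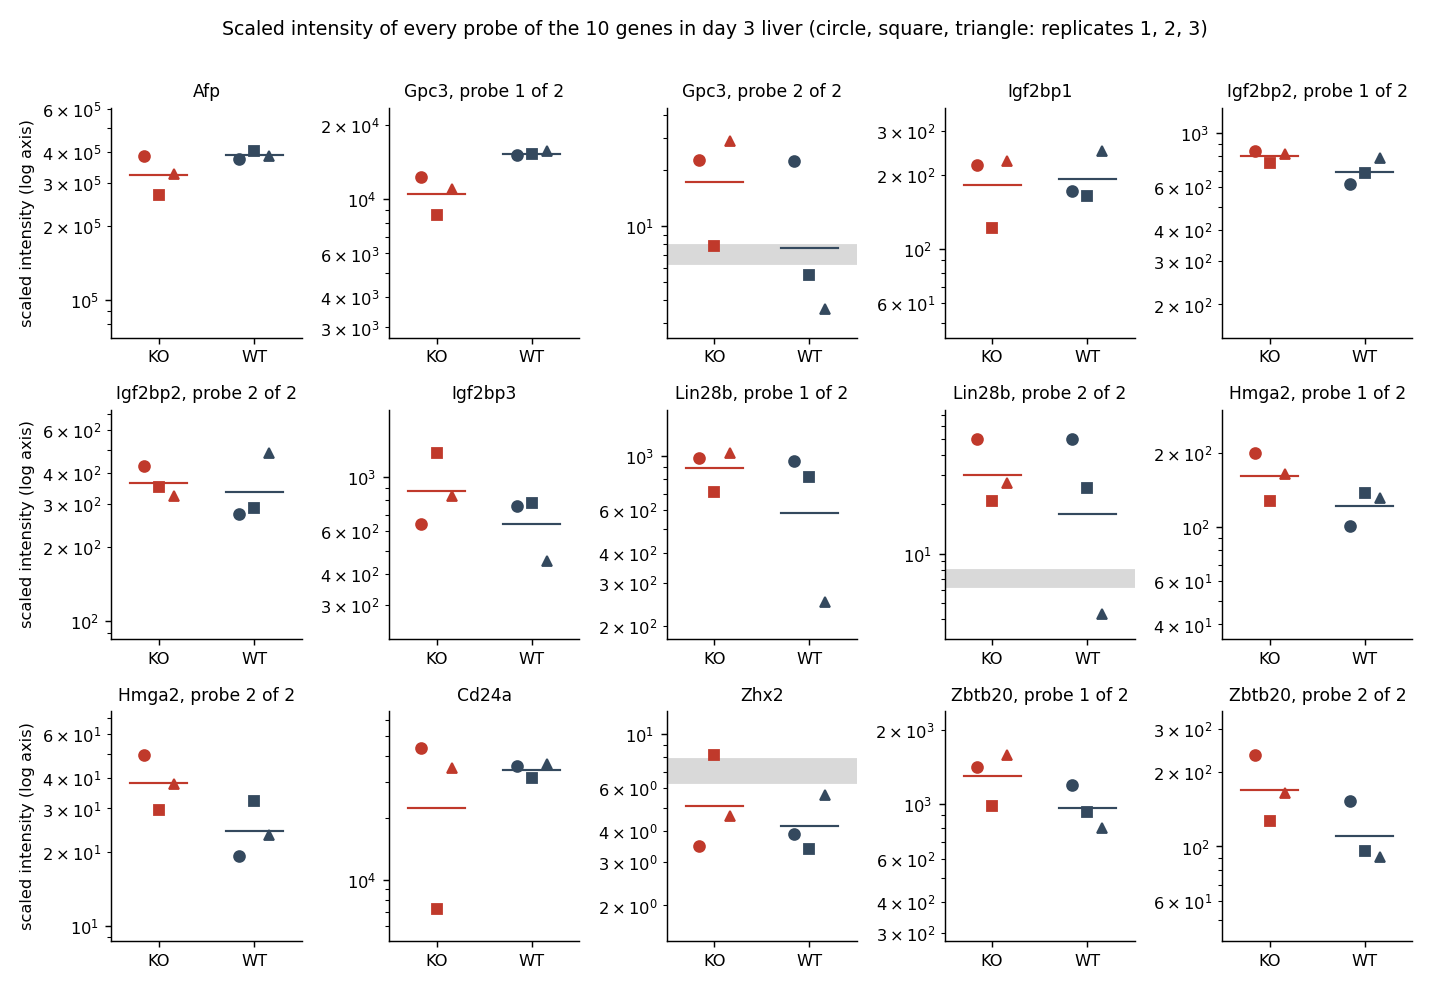
Scaled intensity (log axis) of each of the 15 probes in knockout (KO, left) and wild-type (WT, right) livers, 3 arrays each; symbols mark replicates 1, 2 and 3, horizontal lines the geometric means, and the grey band the range of the detection levels. The brighter Gpc3 probe is the one whose knockout values, 8622 to 12249, all lie under its wild-type values, 15018 to 15603.

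Gpc3 encodes glypican-3, a cell surface heparan sulphate proteoglycan that restrains growth and is abundant in fetal liver and hepatocellular carcinoma. The gene is X-linked, at chrX:52272426-52613974 in GRCm38.p6. Its brighter probe read 12249, 8622 and 10923 (scaled intensity) on knockout 1, 2 and 3, against 15018, 15154 and 15603 on wild-type 1, 2 and 3. All 3 knockout livers were thus below the lowest wild-type liver, and the wild-type values lay within 1.04-fold of each other. In log2 terms the means were 13.36 ± 0.26 in knockout and 13.90 ± 0.029 in wild-type (SD, n = 3 each). The difference was -0.54 ± 0.22 (SE), or 1.45-fold lower in knockout, with a 95% interval of -1.07 to -0.01. The unadjusted p was 0.0456 in limma and 0.0613 in the fit blocked on replicate, and the adjusted p = 1 in both fits. The exact two-sided permutation test gave p = 0.1, the smallest that 3 against 3 arrays allow.

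Within same-numbered pairs the Gpc3 difference was -0.29 in pair 1, which carried Y-linked transcripts, and -0.81 and -0.51 in pairs 2 and 3, which carried Xist. It kept its sign, at -0.65 to -0.40, when any 1 array was left out. The arrays without muscle transcripts are knockout 1, wild-type 1 and wild-type 2, and there the single knockout array differed by -0.30, which shows nothing of the spread between knockout livers. The second Gpc3 probe was near the detection level. It read 22.9, 7.8 and 28.9 in knockout livers, against 22.5, 5.5 and 3.6 in wild-type livers, and was detected on 3 knockout arrays and 1 wild-type array. No difference is given for it, since wild-type 2 and 3 were not above the detection level. The position of the 2 probes along the transcript is not known from the files.

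Afp encodes alpha-fetoprotein, the main plasma protein of the fetal liver, and lies in the albumin gene cluster at chr5:90490714-90508907. Its probe read 386825, 268493 and 325953 (scaled intensity) on knockout 1, 2 and 3, against 374733, 402413 and 386290 on wild-type 1, 2 and 3. Knockout 1 lay inside the wild-type range and knockout 2 and 3 below it. The difference was -0.26 ± 0.22 (log2, SE), with a 95% interval of -0.79 to 0.27 and adjusted p = 1 in limma. The exact permutation test gave p = 0.3. Its raw intensities of 312568 to 412088 were below the highest intensity of each array, 519700 to 643800, and no saturation flags were at hand.

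The sign of the Afp difference depended on the scaling. It was 0.01 after quantile normalization and 0.01 in the deposited log2 values. Of 8 tested hepatocyte markers 6 had lower means in knockout, with a median of -0.25, beside -0.0024 over all features. Quantile normalization brought that median to -0.037. In the main scaling the groups did not overlap, with knockout lower, for 3 of the 8, against 3.18% of all features. Gpc3 was thus not alone in such a separation. After quantile normalization its brighter probe still differed by -0.50 (unadjusted p = 0.0678 in limma). Its groups did not overlap there either, beside 6.94% of all features. Trf, which encodes transferrin, was among the genes whose log2 signal followed Afp most closely over the 6 arrays (r = 0.988, chosen as one of the highest 3 of 21626 genes). The other 2 were LOC100048247 (r = 0.993) and the transcript ENSMUST00000101496 (r = 0.987).

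The promoters of Afp and Gpc3 are shown because these are the oncofetal genes for which repression by Zhx2 is best known in mice. RefSeq held promoters for 7 of the 10 genes (GRCm38.p6). The 250 bases before the annotated start are printed 5′ to 3′ on the gene's strand, and capitals mark matches on either strand. The HNF1 half-site was searched as GTTAAT, and 6.43% of 32851 promoters held it in the same window. The NFI half-site was searched as TTGGCA, which 12.3% of promoters held. The TATA box was searched as TATAAA, which 12.4% held. The GC box was searched as GGGCGG, which 32.7% held, and in Gpc3 its matches are all on the opposite strand. No match printed overlaps another.
Afp, chr5:90490464-90490713, plus strand: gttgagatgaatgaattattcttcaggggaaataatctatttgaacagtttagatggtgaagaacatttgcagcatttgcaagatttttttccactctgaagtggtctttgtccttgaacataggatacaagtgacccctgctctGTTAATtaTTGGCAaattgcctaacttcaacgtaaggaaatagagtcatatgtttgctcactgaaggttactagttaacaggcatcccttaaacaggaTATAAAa
Gpc3, chrX:52613975-52614224, minus strand: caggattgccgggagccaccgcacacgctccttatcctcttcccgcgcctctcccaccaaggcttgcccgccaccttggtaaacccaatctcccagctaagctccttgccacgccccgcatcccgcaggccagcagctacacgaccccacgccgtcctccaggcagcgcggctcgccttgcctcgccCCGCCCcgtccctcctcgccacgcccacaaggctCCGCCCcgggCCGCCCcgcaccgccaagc

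The Afp window held 1 exact match each to the HNF1 half-site, the NFI half-site and the TATA box. They began 105, 97 and 7 bases before the annotated start. The window held 0 GC boxes, with a GC content of 36.0%. The Gpc3 window held 3 GC boxes, at 63, 29 and 19 bases before the start, and 0 of the others. Its GC content was 71.6%, beside a median of 52.4% over all promoters. Igf2bp2 held 2 GC boxes and Hmga2 held 1, and none of these motifs was found in the windows of Igf2bp3, Lin28b or Zbtb20. Such matches describe the letters only. Variants of a site were not searched, and the annotated starts were not checked.

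Cd24a encodes a small glycosylated surface antigen of immature blood cells and of liver progenitors, and is found again in liver cancer. The gene is at chr10:43579169-43584265. Its probe read 43877, 7229 and 34799 (scaled intensity) on knockout 1, 2 and 3, against 35627, 31179 and 36514 on wild-type 1, 2 and 3. Knockout 2 stood alone, 6.07-fold below the highest knockout array, and the other knockout arrays lay within or above the wild-type range. The difference of -0.63 ± 0.66 (log2, SE; 95% interval -2.20 to 0.95; adjusted p = 1 in limma) rested on that liver. Without knockout 2 it was 0.19. Knockout 1 alone, against wild-type 1 and 2, differed by 0.40.

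Erythroid markers were low on the same array. Their summed signal was 971000, 328000 and 833000 on knockout 1, 2 and 3, against 792000, 836000 and 884000 on wild-type 1, 2 and 3. Of 14 tested erythroid markers 12 were lowest on knockout 2, and 0 were under the detection level on any array. Summed cell cycle genes were also lowest there, at 56200, against 111000 to 141000 on the wild-type arrays, with 14 of 15 genes lowest on knockout 2, which was the lowest of the 6 arrays for 24.1% of all features. Granulocyte precursor markers summed to 436000 on knockout 2, against 501000 to 628000 on the wild-type arrays, with 7 of 12 lowest on knockout 2. B cell progenitor markers summed to 13100 on it, against 11100 to 21800 in wild-type, with 3 of 11 lowest. Cholangiocyte and progenitor markers went the other way. They summed to 5610 on knockout 2, against 2340 to 3640 on the wild-type arrays, with 0 of 9 lowest on knockout 2. In whole liver fewer cells of a type and less RNA per cell cannot be told apart, and the part of these cells in the Cd24a value was not tested.

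**Figure D2:**
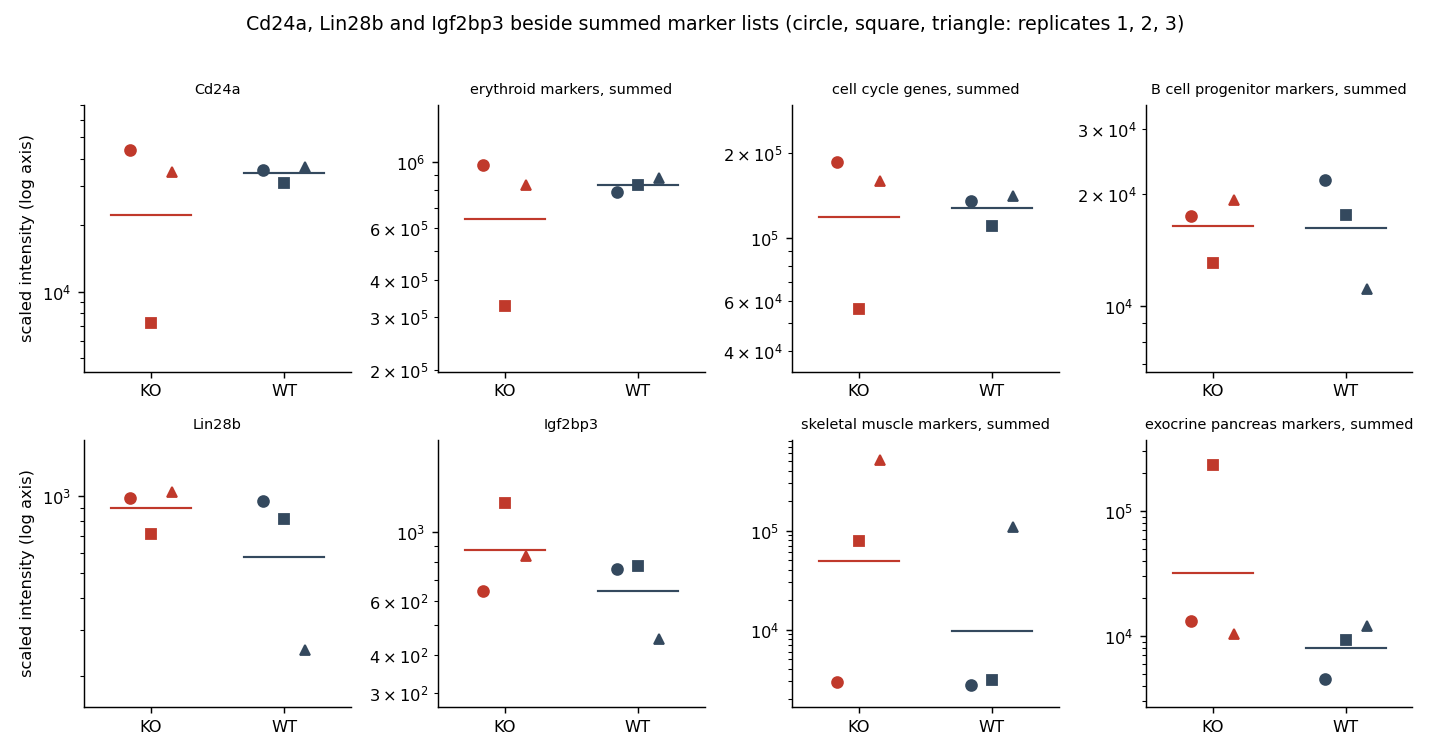
Scaled intensity (log axis) of Cd24a, Lin28b and Igf2bp3 beside the summed scaled intensity of 5 marker lists, in knockout (KO, left) and wild-type (WT, right) livers; symbols mark replicates 1, 2 and 3 and lines the geometric means. Cd24a, erythroid and cell cycle signal are all lowest on knockout 2, and Lin28b is lowest on wild-type 3.

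Lin28b, the RNA-binding protein gene that keeps let-7 immature, lies at chr10:45376617-45486314. Its brighter probe read 978, 709 and 1032 (scaled intensity) on knockout 1, 2 and 3, against 954, 816 and 252 on wild-type 1, 2 and 3. Wild-type 3 stood apart, and the other 5 arrays overlapped. The second, dimmer probe read 49.7, 20.9 and 26.9 in knockout livers, against 50.2, 25.0 and 4.3 in wild-type livers. It too was lowest on wild-type 3, the one array on which it was not detected. The difference of the brighter probe was 0.62 ± 0.52 (log2, SE; 95% interval -0.62 to 1.87; adjusted p = 1 in limma). Without wild-type 3 it was 0.02.

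Wild-type 3 was the lowest of the 6 arrays for 10 of the 19 tested genes of the LIN28 and let-7 pathway. These 10 include Lin28b itself and Igf2bp3. Wild-type 3 was also the lowest for 10 of the 15 tested factors that bind the Afp promoter or enhancers. Of all features 24.1% were lowest on that array. B cell progenitor markers summed to 11100 on it, with 4 of 11 lowest there, and its summed stellate and fibroblast signal, 135000, was the highest of the 6 arrays. The part of these signals in the low Lin28b value was not tested.

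Mature let-7 sequences from RefSeq (GRCm38.p6) are shown because their shared seed, bases 2 to 8 in capitals, is what let-7 reads its targets with. Among 11 family members there, 10 share the seed GAGGUAG, and 0 probes of the array carried a let-7 or miR-98 name, so let-7 itself was not measured here.
let-7b-5p: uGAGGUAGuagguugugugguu
let-7g-5p: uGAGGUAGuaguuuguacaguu
let-7i-5p: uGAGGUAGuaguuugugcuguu
miR-98-5p: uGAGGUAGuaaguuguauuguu

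The 3 Igf2bp genes encode RNA-binding proteins of the fetal period that bind Igf2 and other growth transcripts, and none of them passed the test. Igf2bp1 lies at chr11:95957163-96005944, Igf2bp2 at chr16:22059009-22163299 and Igf2bp3 at chr6:49085218-49215469. Igf2bp3 read 643, 1246 and 837 (scaled intensity) on knockout 1, 2 and 3, against 759, 780 and 452 on wild-type 1, 2 and 3. Knockout 2 was the highest and wild-type 3 the lowest of the 6. The difference was 0.44 ± 0.35 (log2, SE; 95% interval -0.39 to 1.27). Knockout 1 alone, against wild-type 1 and 2, differed by -0.26, while knockout 2 and 3 were higher than every wild-type array. Igf2bp2, which stays on in adult tissues, read 839, 752 and 821 in knockout livers, against 617, 683 and 786 in wild-type livers.

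The highest wild-type liver for Igf2bp2 lay between knockout 2 and knockout 3, so the groups overlapped by 1 array. Its difference was 0.22 ± 0.21 (95% interval -0.28 to 0.71), with pair values of 0.44, 0.14 and 0.06. Its dimmer probe read 430, 351 and 323 in knockout livers, against 273, 290 and 484 in wild-type livers, a difference of 0.12 ± 0.29. Igf2bp1 read 219, 121 and 228 in knockout livers, against 172, 164 and 249 in wild-type livers. The ranges overlapped widely, and the difference was -0.07 ± 0.33 (95% interval -0.86 to 0.71). Its sign turned to 0.04 without scaling, 0.22 without knockout 2 and 0.12 without wild-type 3.

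Hmga2, a chromatin protein gene of growing fetal tissues and a let-7 target, lies at chr10:120361268-120476469 and had 2 probes, both with higher knockout means. The brighter read 199, 127 and 163 (scaled intensity) on knockout 1, 2 and 3, against 101, 137 and 131 on wild-type 1, 2 and 3. The dimmer read 49.6, 29.6 and 37.6 in knockout livers, against 19.2, 32.1 and 23.3 in wild-type livers. On both probes knockout 2 fell inside the wild-type range while knockout 1 and knockout 3 lay above it. The differences were 0.40 ± 0.26 (95% interval -0.22 to 1.02) and 0.65 ± 0.30 (log2, SE), with adjusted p = 1 in limma for both. Without scaling the brighter probe's groups did not overlap.

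Zhx2, at chr15:57694667-57839832, and Zbtb20, at chr16:42875689-43634392, encode the repressors. Zhx2, a zinc finger and homeobox factor, had 1 probe, which read 3.5, 8.2 and 4.6 (scaled intensity) in knockout livers, against 3.9, 3.4 and 5.6 in wild-type livers. It passed the detection level, 6.3 to 7.91 on the same scale, on knockout 2 alone. No fold is given, since on 5 of 6 arrays the probe was not above that level. Its relatives were measured: Zhx3 differed by 0.68 ± 0.47 and Zhx1 by 0.07 ± 0.34 (log2, SE).

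Zbtb20, a BTB zinc finger factor that binds the Afp promoter in mice, was covered by 2 probes. The brighter read 1416, 984 and 1589 (scaled intensity) on knockout 1, 2 and 3, against 1199, 932 and 801 on wild-type 1, 2 and 3. The dimmer read 236, 127 and 164 in knockout livers, against 153, 95.6 and 90.6 in wild-type livers. On each probe the groups overlapped through knockout 2 and wild-type 1, and knockout 1 and 3 exceeded every wild-type array. The differences were 0.44 ± 0.28 (95% interval -0.23 to 1.10) and 0.63 ± 0.33 (log2, SE), each with adjusted p = 1 in limma and p = 0.2 in the exact permutation test. The brighter probe was higher in knockout in all 3 pairs, by 0.24, 0.08 and 0.99, and under all 20 alternatives, at 0.29 to 0.64. The genes that followed Zbtb20 most closely were Olfr657 (r = 0.991), Nkain3 (r = 0.990) and the transcript ENSMUST00000099666 (r = 0.990, n = 6 arrays). For Gpc3 they were Gm7273 (r = 0.996), LOC100045680 (r = 0.990) and Cdcp2 (r = 0.987).

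**Figure D3:**
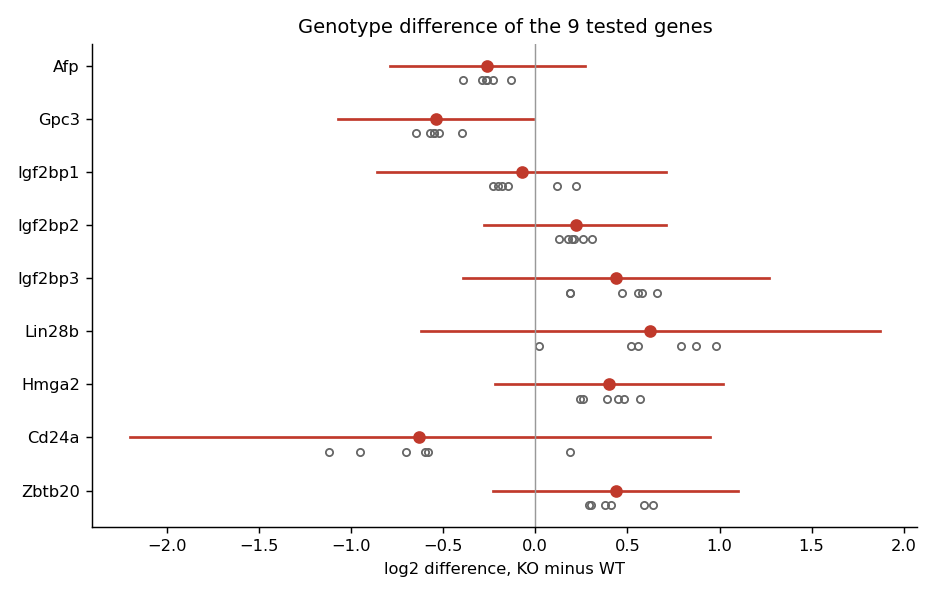
Log2 difference of knockout minus wild-type for the 9 tested genes, each by its brighter probe; filled points are the limma estimates with 95% intervals and open points the 6 values with 1 array left out. The interval of Gpc3, -1.07 to -0.01, is the one that does not reach 0, and the open points of Cd24a and Igf2bp1 fall on both sides of 0.

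Across the 9 tested genes, 3 had the same sign in all 3 same-numbered pairs, Gpc3 being lower and Igf2bp2 and Zbtb20 higher, against 23.6% of all features. Knockout 2 was the lowest of the 3 knockout arrays for 8 of the 9, Igf2bp3 being the exception, where it was lowest for 37.4% of all features. Quantile normalization left that count at 8, against 37.6% of all features. Wild-type 3 was the lowest wild-type array for 3 of the 9, Igf2bp3, Lin28b and Zbtb20, against 39.6% of all features.

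**Figure D4:**
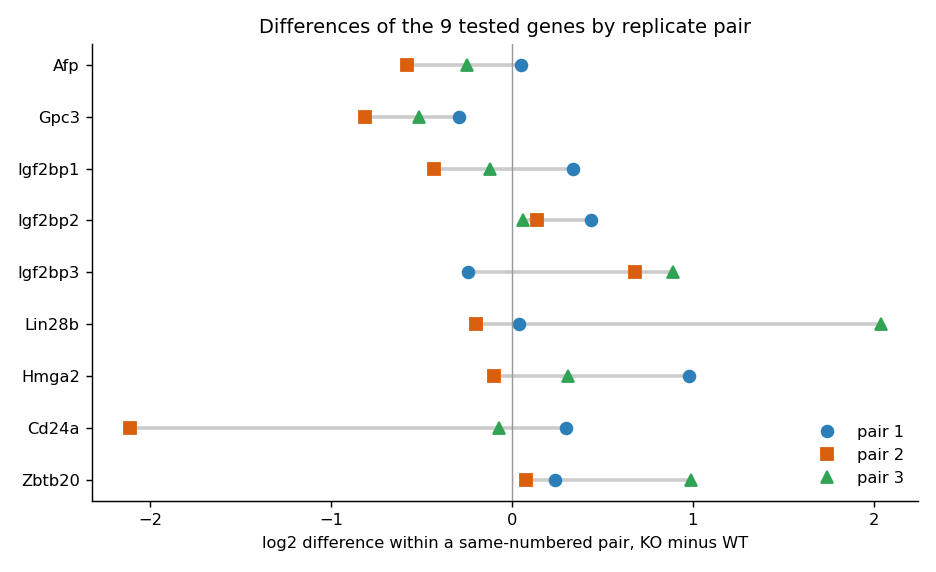
Log2 difference of knockout minus wild-type within each same-numbered pair of arrays for the 9 tested genes; symbols and colours mark pairs 1, 2 and 3 and grey bars their range. Gpc3 lies below 0 in all pairs, and the range is widest for Cd24a, -2.11 to 0.30, and Lin28b, -0.20 to 2.04.

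The wider sets around these genes held no feature past the threshold in either direction. Of the repressor families and targets, 4 of 6 genes were tested, with a median of 0.24. Lpl, which encodes lipoprotein lipase, differed by 0.41 ± 0.23 (log2, SE) and H19, a fetal noncoding RNA, by -0.26 ± 0.20. On each the groups did not overlap, as on 6.71% of all features. For Lpl the nearest arrays, knockout 1 and wild-type 1, both read 14.63. Both are repressed by Zhx2 in mice, and they differed in opposite directions. Among the 4 members of the albumin family 3 were lower. They were Gc, the vitamin D binding protein gene, by -0.41 ± 0.19, Alb by -0.23 ± 0.25 and Afp. The groups did not overlap for Gc alone of the 4, against 3.18% of all features with knockout lower. Afm, the neighbour of Afp, differed by 0.12 ± 0.22. Of the 6 glypicans, Gpc3 included, 3 were lower and 3 higher, with Gpc1 at 0.61 ± 0.36 and Gpc4 at -0.27 ± 0.27.

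Of the 15 factors that bind the Afp promoter or enhancers, 9 were higher and 6 lower, with a median of 0.20. Onecut1 (0.86 ± 0.48), Cebpa (0.44 ± 0.31) and Cebpb (-0.79 ± 0.57), all regulators of hepatocyte genes, had the smallest unadjusted p among them. Wild-type 3 was the highest array for Cebpb, at 14.51 (log2 scaled intensity), beside 11.98 to 12.79 on the others. It was the lowest for Onecut1 and Cebpa, at 11.26 and 11.34. The 19 genes of the LIN28 and let-7 pathway had a median of 0.13, with 12 higher and 7 lower. Lin28b, Hmga2, Igf2bp1, Igf2bp2 and Igf2bp3, described above, are among these genes, so the list is not separate from them. Trim71, itself a let-7 target, differed by 1.13 ± 0.78. Lin28a, the paralog of Lin28b, differed by -0.12 ± 0.27, and Dis3l2, the nuclease that degrades blocked let-7 precursors, by 0.37 ± 0.30.

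Other fetal liver genes were split, 7 of 16 higher and 9 lower, with a median of -0.20. Among the lower, Aldoa, Pkm and Hk2 were each highest on wild-type 3, an array with muscle transcripts, at 17.49, 13.79 and 10.87 (log2 scaled intensity). Summed muscle signal was higher on knockout 3, at 513000 against 109000 on wild-type 3. There the same genes read 16.71, 12.09 and 9.43 on knockout 3, beside 15.69, 11.98 and 9.54 on knockout 1. The part of muscle in these values was not tested. Peg10, a retrotransposon-derived imprinted gene, differed by 0.78 ± 0.34, Spink1 by 1.11 ± 0.77 and Cdkn1c, a growth inhibitor gene, by 0.97 ± 0.69. The groups did not overlap for 3 of the 16, Peg10 and Sall4 being higher and H19 lower, beside 6.71% of all features. Of 14 tested hepatocyte genes listed as rising after birth, 4 were higher and 10 lower, and their median was -0.43. Relative to the mean of wild-type 1 and 2, their median was -1.40, 0.43 and -0.45 on knockout 1, 2 and 3. On wild-type 1, 2 and 3 it was -0.45, 0.45 and -0.17. The knockout arrays thus lay on both sides of that mean. Each was below the wild-type array of the same number, though for replicate 2 the values were nearly equal. Serpina6, the corticosteroid-binding globulin gene, differed by 4.72 ± 0.90 (adjusted p = 0.972 in limma) and stood outside the range of the others. Hpd differed by -0.58 ± 0.33 and Ahsg, which encodes the fetal glycoprotein fetuin-A, by -0.32 ± 0.20. Ahsg was already bright at this age, at 18.43 to 18.89 (log2 scaled intensity) across the arrays. Its place among genes that rise after birth was not tested.

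**Figure D5:**
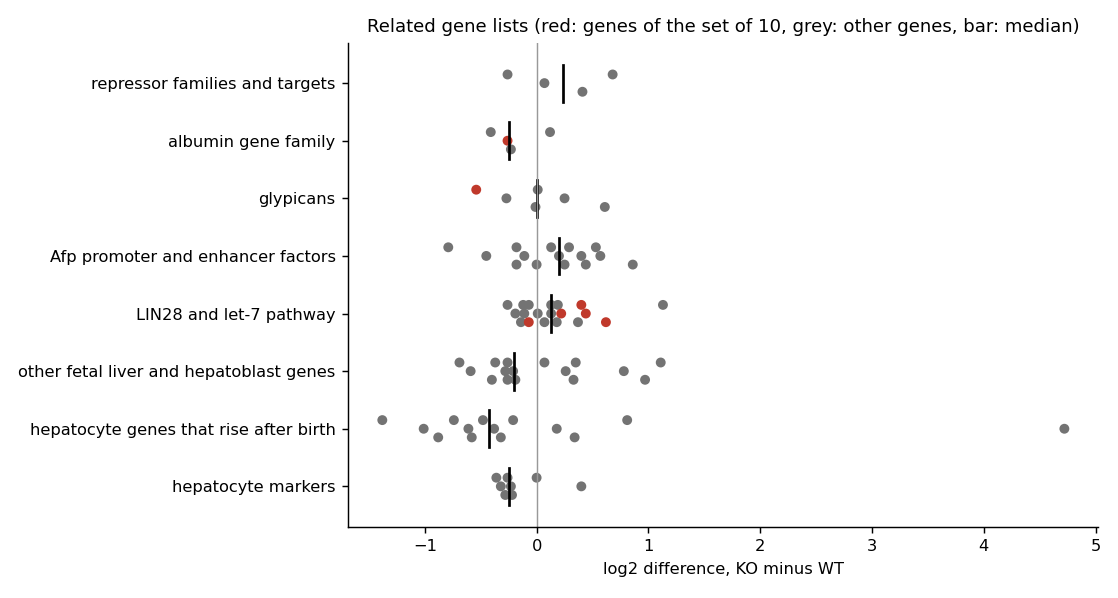
Log2 difference of knockout minus wild-type for tested genes of 8 related lists; red points are genes of the set of 10, grey points other genes and bars the list medians, which run from -0.43 to 0.24. Most points lie between -1 and 1, and Serpina6, at 4.72, is the point at the far right.

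Marker lists of other cell types, given as medians of the log2 difference, were -0.42 for erythroid (14 tested, 14 lower), -0.23 for granulocyte precursor (12) and -0.079 for B cell progenitor genes (11). They were -0.073 for cholangiocyte and progenitor genes (9), -0.045 for stellate cells and fibroblasts (11), -0.035 for endothelium (10), -0.034 for macrophages (10) and 0.059 for cell cycle genes (15). Muscle markers stood at 2.3 (14) and pancreas markers at 2.6 (12). None of their genes passed adjusted p 0.05 in limma. The lower erythroid means rested on knockout 2. Relative to the mean of wild-type 1 and 2, the erythroid median was 0.41, -2.2 and 0.12 on knockout 1, 2 and 3.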

How the data were processed

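Per the labels, total RNA of day 3 livers was hybridised to 1-colour Agilent arrays, and the submitters' processing notes name Agilent Feature Extraction. The authors deposited a table of linear intensity (55681 probes) and a log2 value table. The deposited log2 values were equal, within 0.01, to quantile-normalized log2 intensities centred on each probe's median for at least 99.96% of probes on each array. The medians of its columns ran from -0.011 to 0.005. The intensity table held no flags or background columns. The sources used here do not name the scanner column behind it.

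Each array was scaled so that its 75th percentile matched the arrays' geometric mean, values under 1 were set to 1, and log2 was taken. A probe was detected on an array above the array's 30th percentile and tested if detected on all 3 arrays of 1 genotype. The brightest probe stood for a gene. Gene names were updated through a GRCm38.p6 gene table (3652 probes). Knockout was compared with wild-type over 30929 features by limma 3.58.1 in R 4.3.3, two-sided, with Benjamini-Hochberg adjustment. Further probes come from a fit of 37122 probes. The number of arrays limits the precision.

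The 10 genes and all lists were chosen with earlier results of these data known. Named are the 10 genes, Celf1, up to 3 members of smallest p in each pathway or fetal list, sex-linked genes and the 3 genes most correlated with Afp, Gpc3 or Zbtb20. Zhx1, Afm, Lin28a, Dis3l2, Sall4, Aldoa, Pkm and Hk2 fall outside this rule and were named after their values were seen.

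The labels give both genotypes replicates 1 to 3. After removal of group means, same-numbered arrays correlated at 0.36, 0.26 and 0.30 and other pairings at -0.064 or below. Removing the means of 3 arrays itself forces other pairings below 0 on average where same-numbered ones are positive. Same-numbered arrays also matched in their sex-linked transcripts. The numbers were taken, from the data, to pair the arrays, which does not show a pairing by design. The fit was tested on simulated data (30892 genes, 200 changed, 5 runs): it recovered 0%, 0%, 21.6% and 83.2% of simulated log2 changes of 0.5, 1, 2 and 4, and made 3.8 false calls a run.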

Additional observations from a re-analysis of the deposited data

How the results depend on the processing

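In limma, 0 of the 9 genes of the main setting passed adjusted p 0.05 under any of 20 alternatives, nor did Zhx2 in the 2 that tested it (detection at the 20th percentile and no filter). For the 9 genes adjusted p stayed at 0.654 or above. Gpc3 was the single gene whose unadjusted p was under 0.05, which it was in 6 of them. The count of all features past the threshold, 1 in the main setting, was 2 with median scaling or detection at the 50th percentile, 3 with each probe by itself, 6 with array weights, and 0 with the replicate number as a block, without the filter on dim probes, without pair 1 or without the arrays with muscle transcripts (an alternative chosen after seeing the data). It was 0 to 1 with any 1 array left out. The replicate block moved none of the 9 genes across the adjusted threshold, and took Gpc3 to an unadjusted p of 0.0613.

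Genes of the 10 with groups that did not overlap, 1 in the main setting, were 2 with median scaling (Afp and Gpc3, beside 6.65% of all features), 3 without scaling (Gpc3, Hmga2 and Zbtb20, beside 6.20%), 0 with the mean of all probes (6.70%) and 4 without pair 1 (30.1%). They were 1 to 5 with 1 array left out, 5 of them without knockout 2 (18.8%), where fewer arrays make separation easier. Signs turned for Afp with quantile normalization (0.01) and the deposited log2 values (0.01), and for Gpc3 with the mean of its probes (0.32), which gives equal weight to a probe detected on 1 wild-type array. They turned for Igf2bp1 without scaling (0.04), with array weights (0.20), and with 1 array left out (-0.23 to 0.22), and for Cd24a without knockout 2 (range with 1 array left out -1.12 to 0.19). The arrays without muscle transcripts leave 1 knockout array, knockout 1, against wild-type 1 and 2, so its spread is not measured. There Igf2bp1 stood at 0.38, Igf2bp3 at -0.26 and Cd24a at 0.40. Celf1 passed the threshold with median scaling (-3.05), detection at the 50th percentile (-3.03), each probe by itself (-3.03), an added constant of 16 (-2.98) and array weights (-3.02). The causes of these changes were not tested beyond the construction of each alternative.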
